A study of Mus musculus with 8 samples.

Results

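The 10 genes described here encode 6 Toll-like receptors of the cell surface and endosome (Tlr1, Tlr2, Tlr4, Tlr6, Tlr7 and Tlr8), the related receptor Cd180, the co-receptors Cd14 and Ly96, and the adaptor Myd88. They were chosen by gene symbol, and all probe sets that the platform annotation names for them were used. This gave 13 probe sets of 22626, for 10 of 12393 named genes. All 13 passed the signal filter, a highest signal at or above the pooled median of 59.1, and none of them names a second gene. Toll-like receptors bind conserved microbial molecules, and Myd88 links nearly all of them to the kinases that activate NF-κB. Tlr4 with Ly96 (MD-2) detects lipopolysaccharide, which Cd14 hands over, whereas Tlr2 pairs with Tlr1 or Tlr6 to detect bacterial lipopeptides. Tlr7 and Tlr8 sit in endosomes, where they detect single-stranded RNA, and macrophages are a principal site of this whole system.

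The cells were macrophages that mouse bone marrow yields after 7 days in M-CSF, the macrophage growth factor, at 50 ng/ml. The 8 groups had 1 array each. Vdr-/- cells came from mice that carry the targeted allele Vdr tm1 Rge of the vitamin D receptor gene, and they were given IFN-gamma and calcitriol, IFN-gamma alone, calcitriol alone or neither. Wild-type cells had the same 4 states. IFN-gamma is the T-cell and NK-cell cytokine of classical macrophage activation, and calcitriol is the hormonally active form of vitamin D and the ligand of the Vdr protein. Treatments lasted 24 to 48 hours, and the sources used here give no doses, no age or number of mice and no statement on pooling. Thioglycolate-elicited peritoneal macrophages are described in the labels as well, but every source name gives bone marrow cells.

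The signals are linear intensities as deposited, and their 2% trimmed mean was 150.07 to 150.08 on every array. No group had a replicate, so each test takes its spread from the same contrast repeated in the other groups. That spread may be technical, and it also holds any change of the effect between those groups. Changes are on the log2 scale after signals under 15.5 were raised to that floor. A change is called where its p from limma, a linear model fitted to all 18058 tested probe sets, stayed under 0.05 after adjustment over all of them. Vdr, the targeted gene, went against the labels of both untreated arrays. The 2 Vdr probe sets read 90.3 and 63.2 on the array labelled Vdr-/- untreated, against 6.7 and 5.3 on the array labelled wild-type untreated. Under the other 3 treatments they read 2.5 to 45.6 in Vdr-/- cells and 51.5 to 385.9 in wild-type cells. Whether these probe sets fall inside the deleted part of Vdr is unstated in the sources used here, and outside it they would check nothing. All 8 macrophage markers looked up (among them Adgre1, Csf1r and Cd68) were at or above the median signal of 59.1 on all 8 arrays. Of the markers of other cells, 1 of 8 for neutrophils (S100a8), 2 of 6 for dendritic cells (Itgax and Cd83) and 0 of 16 annotated lymphocyte, stromal, erythroid and mast cell genes reached it on all 8 arrays. Of 3 annotated genes linked to peritoneal macrophages, 2 did so (Itga6 and Cd5l). RNA truncation, read as the Gapdh 3'/5' signal ratio, was highest on the wild-type calcitriol array (7.67), the array labelled Vdr-/- untreated (4.82), the Vdr-/- IFN-gamma array (3.06) and the wild-type array with both agents (1.65). It was 0.853 to 1.11 on the other 4 arrays. The actin 3'/5' ratio was highest on the wild-type calcitriol array (4.08) and the array labelled Vdr-/- untreated (3.27). On the remaining arrays the actin ratio was 1.39 to 1.81.

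Of the 10 genes, 3 are shown with the 250 bases before their transcription start, because Myd88 was the member whose brightest probe set moved the same way in all 4 IFN-gamma pairs, Tlr8 the one that differed most between arrays, and Tlr2 the one whose window holds a hexamer that the vitamin D receptor can bind. The sequences are from RefSeq on mouse build GRCm38.p6, read 5′ to 3′ on the gene's strand. The RefSeq promoter table used here holds 6 of the 10 members, and Cd14, Ly96, Tlr4 and Tlr7 are named only. Capitals mark matches, on either strand, to the gamma-activated site TTCNNNGAA, the core of the interferon-stimulated response element (GAAA, any 2 bases, GAAA), or the hexamers AGGTCA and GGTTCA of vitamin D response elements. The macrophage factor PU.1 was searched as GAGGAAGT and matched none of these 3 windows.
Myd88, chr9:119340019-119340268, minus strand: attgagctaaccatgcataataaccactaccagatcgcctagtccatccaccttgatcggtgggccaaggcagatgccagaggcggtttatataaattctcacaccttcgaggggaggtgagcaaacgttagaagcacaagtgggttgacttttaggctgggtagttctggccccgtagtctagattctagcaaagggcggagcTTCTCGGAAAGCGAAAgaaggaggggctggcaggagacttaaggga
Tlr8, chrX:167264330-167264579, minus strand: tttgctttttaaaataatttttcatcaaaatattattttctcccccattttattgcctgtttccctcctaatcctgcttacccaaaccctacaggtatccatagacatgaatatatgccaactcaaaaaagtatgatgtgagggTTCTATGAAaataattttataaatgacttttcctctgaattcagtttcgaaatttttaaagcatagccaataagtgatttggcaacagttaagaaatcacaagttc
Tlr2, chr3:83841609-83841858, minus strand: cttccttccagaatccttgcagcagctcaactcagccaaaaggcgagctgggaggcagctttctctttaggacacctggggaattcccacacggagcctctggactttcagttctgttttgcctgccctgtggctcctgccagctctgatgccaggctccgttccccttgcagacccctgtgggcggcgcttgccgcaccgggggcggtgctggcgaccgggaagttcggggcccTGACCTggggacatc

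In the Myd88 window the gamma-activated site TTCTCGGAA lies 46 to 38 bases before the start and overlaps the response element core GAAAGCGAAA at 40 to 31 bases. Of 32851 promoter windows of this length, 7.02% hold a gamma-activated site, 2.98% hold the core and 18 (0.0548%) hold both with an overlap. The Tlr8 window holds a gamma-activated site at 106 to 98 bases before the start. The Tlr2 window holds AGGTCA on the opposite strand, written TGACCT, at 15 to 10 bases, and 14% of all windows hold AGGTCA while 8.85% hold GGTTCA. Of the windows not shown, 1 of Tlr1 holds a gamma-activated site at 228 to 220 bases. The other Tlr1 window holds PU.1's letters at 23 to 16 bases. For Tlr6, 1 window holds 2 matches to the core, and its other window and both Cd180 windows hold no match. PU.1's letters occur in 2.44% of all windows. These matches are letters in a window and were not measured as binding.

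**Figure D1:**
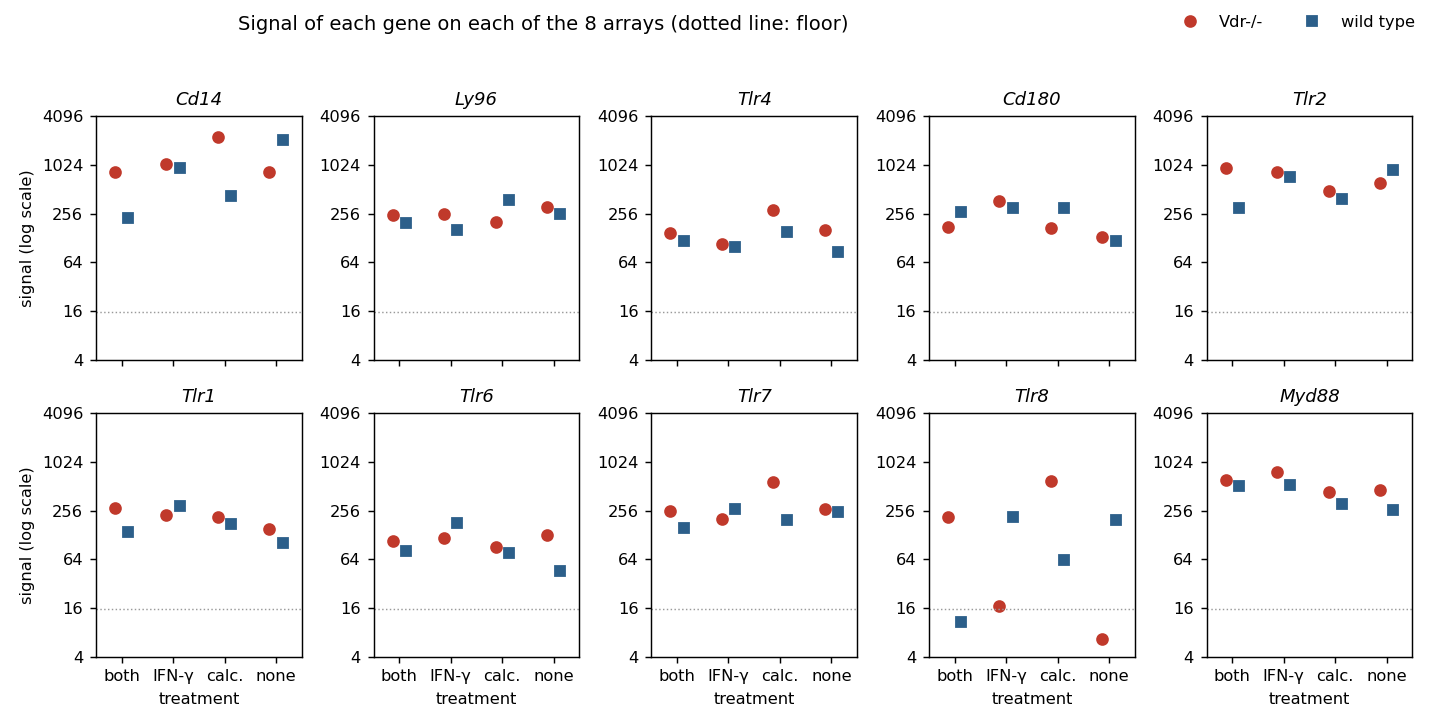
Signal of the brightest probe set of each of the 10 genes on each of the 8 arrays, on a log scale with 1 panel a gene. Red circles are Vdr-/- and blue squares wild-type cells, placed by treatment (both agents, IFN-gamma, calcitriol, none, by label), each point is 1 array, and the dotted line is the floor of 15.5. Cd14 spans 228.3 to 2271.9 and Tlr8 6.7 to 585.2, while Myd88 is by label higher in Vdr-/- cells at each of the 4 treatments.

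Cd14 hands lipopolysaccharide to the Tlr4 complex and is also shed from the cell. Cd14 in Vdr-/- cells read 835.1 with both agents, 1036.9 with IFN-gamma, 2271.9 with calcitriol and 826 on the array labelled untreated. Wild-type cells gave Cd14 signals of 228.3 with both agents, 935.8 with IFN-gamma, 422.3 with calcitriol and 2051.8 on the array labelled untreated. The lowest readings were thus those of both wild-type arrays with calcitriol, with every other array above them, both labelled untreated included.

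Ly96 encodes MD-2, the protein that binds lipopolysaccharide for Tlr4. Its signal in Vdr-/- cells was 246.1 with both agents, 250.4 with IFN-gamma, 203.4 with calcitriol and 312.3 on the array labelled untreated. Ly96 in wild-type cells read 196.7 with both agents, 162.2 with IFN-gamma, 379.2 with calcitriol and 253.9 on the array labelled untreated. Its range, from the lowest to the highest array, was 2.34-fold, the narrowest of the 13 probe sets.

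Tlr4, the lipopolysaccharide receptor itself, had 2 probe sets. The brighter read 148.9 with both agents, 108.1 with IFN-gamma, 286.1 with calcitriol and 159.8 on the array labelled untreated in Vdr-/- cells. In wild-type cells this Tlr4 probe set read 117.8 with both agents, 100 with IFN-gamma, 152.6 with calcitriol and 85.7 on the array labelled untreated. By label, it was higher with calcitriol in 4 of 4 pairs, by 0.24 to 0.84 log2, and higher in Vdr-/- cells in 4 of 4 pairs, by 0.11 to 0.91 log2. Both counts rest on the labels of the untreated arrays, which go against Vdr. The wild-type calcitriol reading of 152.6 lay between those arrays' 85.7 and 159.8, and the untreated genotype pair consists of them. How many of all probe sets gave such counts was not determined. The dimmer Tlr4 probe set ranged from 36 to 222.4, was lower with calcitriol in 3 of 4 pairs and was lowest on the wild-type array with both agents, so the 2 probe sets disagreed.

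Cd180 (RP105) is a Tlr4-like receptor without a signalling domain that restrains Tlr4 in macrophages. Cd180 in Vdr-/- cells read 175 with both agents, 371.6 with IFN-gamma, 169.7 with calcitriol and 131.8 on the array labelled untreated. Wild-type cells gave Cd180 signals of 268 with both agents, 298 with IFN-gamma, 303 with calcitriol and 118.1 on the array labelled untreated. Both arrays labelled untreated were the lowest of the 8.

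Tlr2 detects bacterial lipopeptides together with Tlr1 or Tlr6. Tlr2 in Vdr-/- cells read 927.7 with both agents, 829.8 with IFN-gamma, 486.4 with calcitriol and 608.1 on the array labelled untreated. Wild-type cells gave Tlr2 signals of 301 with both agents, 728.5 with IFN-gamma, 386.9 with calcitriol and 883.1 on the array labelled untreated. As for Cd14, the lowest readings were those of both wild-type arrays with calcitriol.

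Tlr1 and Tlr6 are neighbouring genes for the partners of Tlr2. Tlr1 in Vdr-/- cells read 274.2 with both agents, 226.1 with IFN-gamma, 210.2 with calcitriol and 149.9 on the array labelled untreated. Tlr1 in wild-type cells read 139 with both agents, 291.8 with IFN-gamma, 176.6 with calcitriol and 100.3 on the array labelled untreated. The genotypes overlapped, and the lowest Tlr1 reading was that of the array labelled wild-type untreated. Tlr6 in Vdr-/- cells read 106.7 with both agents, 117.5 with IFN-gamma, 89.9 with calcitriol and 126.5 on the array labelled untreated. Tlr6 in wild-type cells read 81.6 with both agents, 181.3 with IFN-gamma, 77.4 with calcitriol and 46.2 on the array labelled untreated. Its lowest and its highest readings, 3.92-fold apart, were both in wild-type cells.

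Tlr7 and Tlr8 are neighbours on the X chromosome and belong to the receptors for single-stranded RNA. The brightest of 3 Tlr7 probe sets read 254.7 with both agents, 203.7 with IFN-gamma, 568.7 with calcitriol and 265.5 on the array labelled untreated in Vdr-/- cells. In wild-type cells this Tlr7 probe set read 154.9 with both agents, 264.4 with IFN-gamma, 194.6 with calcitriol and 247.6 on the array labelled untreated. The Vdr-/- calcitriol array stood above the other 7. The other Tlr7 probe sets, which come from the same transcript sequence as each other, ranged from 78.8 to 212.9 and from 26.2 to 155.6, and neither was highest on that array.

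Tlr8 in Vdr-/- cells read 215.4 with both agents, 16.9 with IFN-gamma, 585.2 with calcitriol and 6.7 on the array labelled untreated. Wild-type cells gave Tlr8 signals of 10.7 with both agents, 210.5 with IFN-gamma, 62.6 with calcitriol and 195.1 on the array labelled untreated. The readings on the array labelled Vdr-/- untreated and on the wild-type array with both agents were below the floor of 15.5, and they are set to it in every log2 value. By the labels, calcitriol arrays were thus the higher ones in Vdr-/- cells and the lower ones in wild-type cells, at both levels of IFN-gamma. Without IFN-gamma the wild-type direction rests on the labels of the untreated arrays, since the wild-type calcitriol reading of 62.6 lay between those arrays' 6.7 and 195.1, whereas the Vdr-/- calcitriol reading lay above both. In the mouse, loss of Tlr8 is known to raise Tlr7.

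Myd88 is the adaptor that carries the signal of all 6 of these Toll-like receptors. Myd88 in Vdr-/- cells read 608 with both agents, 772.1 with IFN-gamma, 431.5 with calcitriol and 463.1 on the array labelled untreated. Wild-type cells gave Myd88 signals of 507.7 with both agents, 531.9 with IFN-gamma, 309.1 with calcitriol and 257.2 on the array labelled untreated. The 4 arrays with IFN-gamma (507.7 to 772.1) did not overlap the 4 without it (257.2 to 463.1). How many of all probe sets separate by IFN-gamma in this way was not counted.

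The comparison of calcitriol effects between genotypes asks what the hormone does to these genes with and without its receptor. In human monocytes calcitriol is known for raising CD14. Here Tlr8 rose with calcitriol in Vdr-/- cells and Cd14 fell with it in wild-type cells, and for both genes the calcitriol effect was higher in Vdr-/- than in wild-type cells. In Vdr-/- cells the Cd14 estimate was 0.57 log2 (SE 0.366, limma adjusted p = 0.899), and the pairs differed in sign, with -0.31 under IFN-gamma and 1.46 without. Cd14 changed by -2.16 log2 in wild-type cells (SE 0.366, 95% interval -2.92 to -1.40, limma adjusted p = 0.00636), which is 4.46-fold lower. Both wild-type pairs showed it, with -2.04 under IFN-gamma and -2.28 without. The difference between genotypes was 2.73 log2 for Cd14 (SE 0.518, 95% interval 1.66 to 3.80, adjusted p = 0.00558).

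Tlr8 rose with calcitriol by 4.46 log2 in Vdr-/- cells (SE 0.756, 95% interval 2.89 to 6.02, limma adjusted p = 0.0108). It was 12.7-fold higher under IFN-gamma, and at least 37.8-fold higher against the floor without it. In wild-type cells the Tlr8 estimate was -2.70 log2 (SE 0.756, adjusted p = 0.123), with a signal at least 13.6-fold lower under IFN-gamma and 3.12-fold lower without it. The difference between genotypes was 7.16 log2 for Tlr8 (SE 1.07, 95% interval 4.94 to 9.37, adjusted p = 0.00104). Sizes on the log2 scale depend on the floor for this gene.

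In Vdr-/- cells 1 of the 10 members, Tlr8, was called higher with calcitriol, against 35 of 18058 tested probe sets (0.194%), all of them higher, and 1147 had an unadjusted p under 0.05 (6.35%). In wild-type cells 1 of 10, Cd14, was called lower, against 104 of all probe sets in either direction (0.576%) and 70 lower (0.388%), with 1857 at an unadjusted p under 0.05 (10.3%). For the difference, 2 of 10 were called, both higher in Vdr-/- cells, against 271 in either direction (1.5%) and 240 higher (1.33%), while 0 members and 31 probe sets were lower (0.172%). At an unadjusted p under 0.05 stood 4 members and 2196 probe sets (12.2%). The members' median change was 0.15 log2 in Vdr-/- cells, against -0.08 over all tested probe sets, and -0.17 log2 in wild-type cells, against 0.05 over all tested. The median difference was 0.31 log2 for the members and -0.16 over all tested.

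Among the members that did not pass, Tlr2 had a calcitriol estimate of -0.08 log2 in Vdr-/- cells (SE 0.333, adjusted p = 0.999) and of -1.23 log2 in wild-type cells (SE 0.333, adjusted p = 0.105). Its signal was lower with calcitriol in both wild-type pairs, by -1.27 log2 under IFN-gamma and -1.19 without. The Tlr2 difference was 1.15 log2 (95% interval 0.18 to 2.13, adjusted p = 0.312). The Tlr7 difference was 1.27 log2 on the brightest probe set (95% interval 0.05 to 2.49, adjusted p = 0.391), and -0.43 and 0.93 on the other 2. Tlr4, the receptor that works with Cd14, had a difference of 0.12 log2 on its brighter probe set (95% interval -1.44 to 1.67) and its partner Ly96 one of -0.75 (-1.97 to 0.47). For Myd88 the difference was -0.32 log2, with an interval of -1.34 to 0.70. For Cd180, Tlr1 and Tlr6 the estimates were -0.96, 0.51 and -0.11 log2, with intervals that include 0.

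The other 7 members did not pass within either genotype. In Vdr-/- cells their calcitriol estimates were 0.71 log2 for Tlr7, 0.65 for Tlr4, 0.38 for Tlr1, -0.22 for Myd88, -0.32 for both Tlr6 and Ly96, and -0.36 for Cd180. In wild-type cells they were 0.60 log2 for Cd180, 0.53 for Tlr4, 0.43 for Ly96, 0.10 for Myd88, -0.13 for Tlr1, -0.20 for Tlr6 and -0.56 for Tlr7. The 95% intervals of these estimates all include 0. Calcitriol estimates of the dimmer Tlr4 probe set were -0.27 log2 in Vdr-/- cells and -1.17 in wild-type cells, and those of the dimmer Tlr7 probe sets were -0.69 and -0.02 in Vdr-/- cells and -0.26 and -0.95 in wild-type cells.

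**Figure D2:**
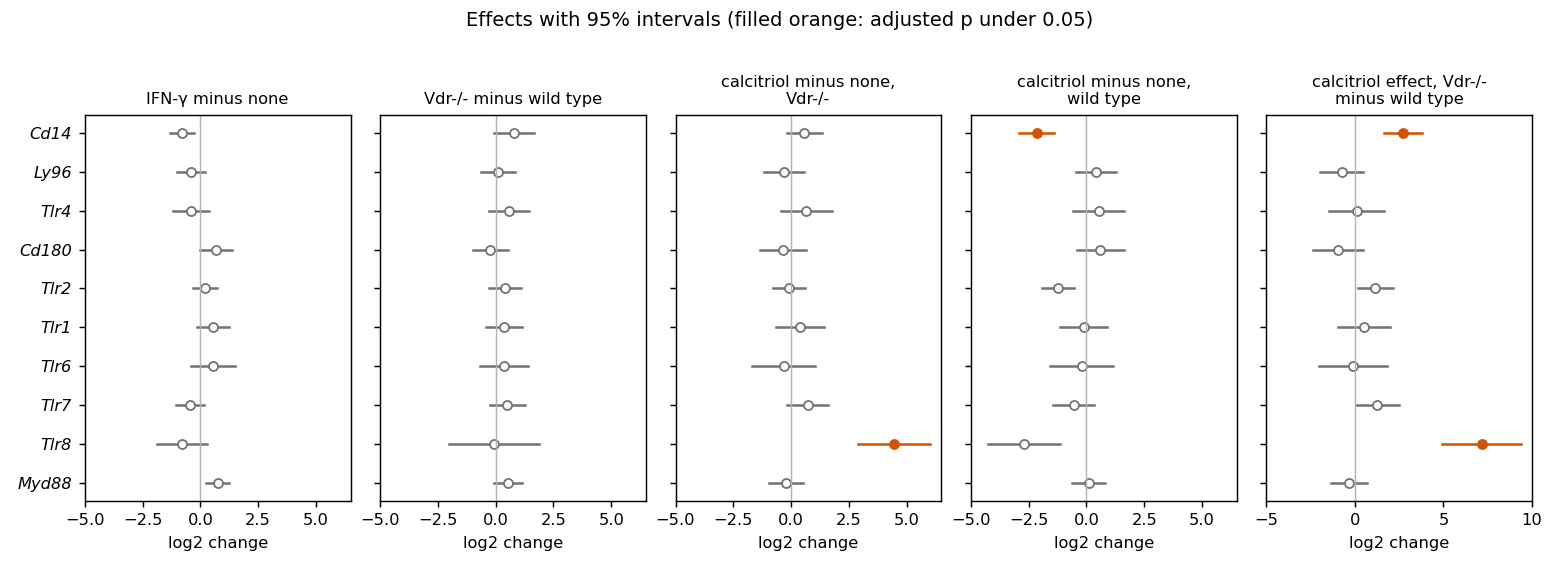
Estimated log2 changes of the 10 genes (brightest probe set) in 5 comparisons, 1 panel each, as points with 95% intervals from the limma fits. The fifth panel has a wider axis. Filled orange points passed an adjusted p of 0.05 over all tested probe sets, and these are Tlr8 with calcitriol in Vdr-/- cells, Cd14 with calcitriol in wild-type cells, and both genes in the difference of calcitriol effects.

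The 4 arrays with the highest Gapdh 3'/5' ratios were the 2 Vdr-/- arrays without calcitriol and the 2 wild-type arrays with it, so the ratio runs along with the difference of calcitriol effects. On those 4 arrays Tlr8 read 6.7 to 62.6, against 195.1 to 585.2 on the 4 arrays with the lower ratios, with no overlap. Cd14 read 228.3 to 1036.9 on the 4 with higher ratios and 835.1 to 2271.9 on the 4 with lower ones, which overlap. How many of all probe sets split by the ratio as Tlr8 did was not counted. The difference of calcitriol effects sets the same 4 arrays against the same 4 others. For it, 12.2% of all tested probe sets had an unadjusted limma p under 0.05 and 1.5% were called. Whether the calls passed with the ratio in the fit depended on the other terms. With the ratio added to the nested fit, which left 1 residual degree of freedom, the difference was 9.17 log2 for Tlr8 (limma adjusted p = 0.0448) and 1.20 for Cd14 (adjusted p = 0.882). Tlr8 in Vdr-/- cells was 5.54 log2 in that fit (adjusted p = 0.022), and Cd14 in wild-type cells -1.45 (adjusted p = 0.323). With the ratio added to an additive fit, which left 2 and was chosen after seeing the data, no call passed. The difference was then 8.93 log2 for Tlr8 (limma adjusted p = 0.175) and 2.04 for Cd14 (adjusted p = 0.844), while Tlr8 in Vdr-/- cells was 5.41 (adjusted p = 0.156) and Cd14 in wild-type cells -1.84 (adjusted p = 0.28). Leaving out the 2 arrays with the highest ratios gave differences of 7.44 log2 for Tlr8 and 1.72 for Cd14 (limma adjusted p = 0.702 for both, 1 residual degree of freedom).

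The arrays whose labels go against Vdr enter only the pairs without IFN-gamma. In the IFN-gamma pairs, which do not use them, calcitriol gave Cd14 changes of -0.31 log2 in Vdr-/- cells and -2.04 in wild-type cells, and Tlr8 changes of 3.67 log2 in Vdr-/- cells and -3.76 against the floor in wild-type cells. Without the 2 arrays labelled untreated, a fit with 1 residual degree of freedom gave Tlr8 3.53 log2 in Vdr-/- cells (limma adjusted p = 1) and Cd14 -2.17 log2 in wild-type cells (adjusted p = 0.844). It called 0 of all probe sets, with 293 at an unadjusted p under 0.05 in Vdr-/- cells and 746 in wild-type cells.

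Marker genes outside the set moved both ways in the same contrast. Of the 8 macrophage markers, 3 were called higher for the difference, namely Cd68 (2.70 log2, adjusted p = 0.00408), the integrin gene Itgam (3.63, adjusted p = 0.00448) and the Fc receptor gene Fcgr1 (3.79, adjusted p = 0.000646). The other 5 macrophage markers had differences of -0.71 (Mpeg1) to 1.06 log2 (Adgre1). Over all tested probe sets 1.33% were called higher for this difference and 0.172% lower. Of 4 tested dendritic cell markers, the integrin gene Itgax was called lower (-2.32 log2, limma adjusted p = 0.0337), and 0 of the tested markers of the other lists were called. Itgax read 108.3 and 424.1 in Vdr-/- cells with calcitriol, against 277.8 and 446.6 without, and 1279.2 and 1242.8 in wild-type cells with it, against 263.4 and 652.7 without. Summed over the list, macrophage markers read 57430 and 64300 in Vdr-/- cells with calcitriol, against 53310 and 70150 without, and 46080 and 69360 in wild-type cells with it, against 59770 and 59400 without. Most of each sum comes from Csf1r, Lyz2 and Mpeg1, which read 23760.8, 28242.7 and 11836.7 on the array labelled Vdr-/- untreated. The sums therefore say little about Cd68, Itgam and Fcgr1. Fewer cells of a kind and less RNA per cell cannot be told apart in such bulk signals. The part of the marker shifts in the Cd14 and Tlr8 results was not tested.

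**Figure D3:**
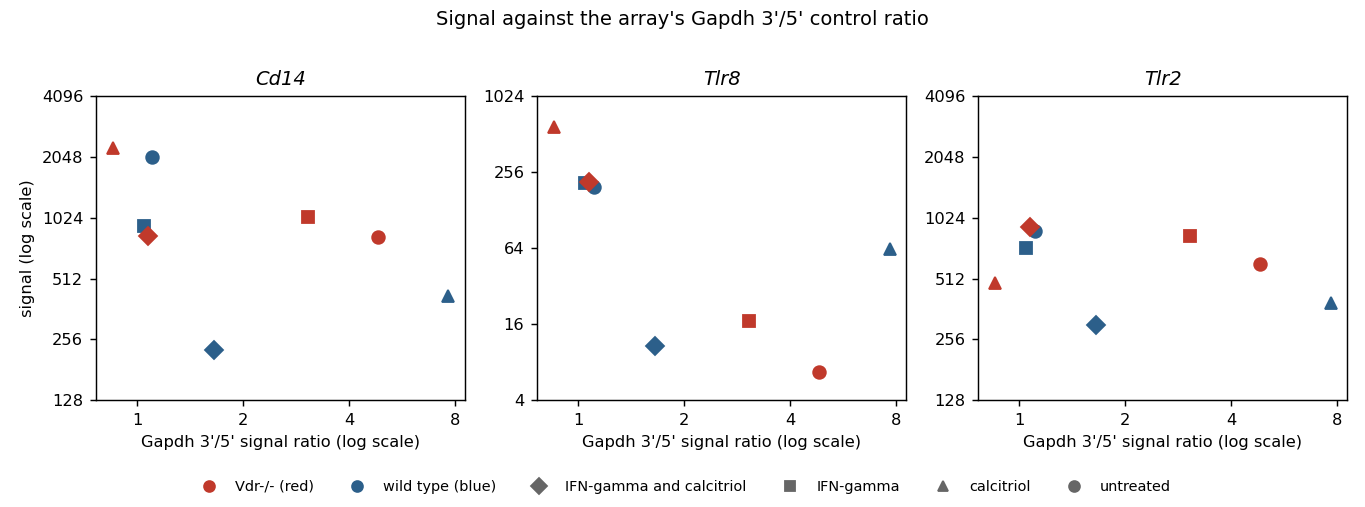
Signal of Cd14, Tlr8 and Tlr2 (log scale) against the Gapdh 3'/5' signal ratio of the same array (log scale), 1 point an array. Colour gives the genotype and shape the treatment by label. For Tlr8 the 4 arrays with the higher ratios read 6.7 to 62.6 and lie below the 4 others at 195.1 to 585.2, while Cd14 overlaps between them. Such splits were not counted over all probe sets.

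The comparison of IFN-gamma with no IFN-gamma asks whether the cytokine changes the level of the sensing genes. None of the 10 members passed the test of limma, while 2 had an unadjusted p under 0.05, and 619 of 18058 probe sets were called (3.43%), with 2244 at an unadjusted p under 0.05 (12.4%). Myd88 had the largest positive estimate, 0.75 log2 (SE 0.238, 95% interval 0.26 to 1.24, adjusted p = 0.102), which is 1.68-fold. Its signal was higher in 4 of 4 pairs. In Vdr-/- cells the Myd88 pair changes were 0.49 log2 with calcitriol and 0.74 without, and in wild-type cells 0.72 with calcitriol and 1.05 without.

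Cd14 had an estimate of -0.78 log2 with IFN-gamma (SE 0.254, 95% interval -1.31 to -0.26, limma adjusted p = 0.11) and was lower in 3 of 4 pairs. The exception was the Vdr-/- pair without calcitriol, which uses the array labelled Vdr-/- untreated and changed by 0.33 log2. Tlr8 had an estimate of -0.81 log2 (SE 0.521, adjusted p = 0.593), with 2 pairs in each direction.

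The other members gave IFN-gamma estimates between -0.44 and 0.67 log2 on their brightest probe sets. Cd180 was at 0.67 log2 (SE 0.334, limma adjusted p = 0.418), and its pairs split by calcitriol. Without calcitriol the Cd180 change was 1.50 log2 in Vdr-/- cells and 1.34 in wild-type cells, whereas with calcitriol it was 0.04 in Vdr-/- cells and -0.18 in wild-type cells, a split that was not tested. All 3 Tlr7 probe sets had negative estimates (-0.44, -0.58 and -0.97 log2), and the 2 dimmer ones were lower in 4 of 4 pairs. Tlr1 was at 0.54 log2, Tlr6 at 0.55, Tlr2 at 0.19 and Ly96 at -0.41. The brighter Tlr4 probe set was at -0.41 log2 and the dimmer at 0.15. The members' median was -0.11 log2, against -0.08 over all tested probe sets.

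Between genotypes, 0 of the 10 members and 0 of 18058 probe sets (0%) passed the limma test, and 0 members and 611 probe sets (3.38%) had an unadjusted p under 0.05. In this fit a genotype effect that changes with calcitriol counts as spread, so 0 calls do not mean that the genotypes were alike. The estimate was above 0 (higher in Vdr-/- cells) for 8 of 10 members, with a median of 0.38 log2, against -0.03 over all tested probe sets. By label, Myd88 was higher in Vdr-/- cells in 4 of 4 pairs, with an estimate of 0.53 log2 (SE 0.298, 95% interval -0.09 to 1.15, adjusted p = 0.999). Its pair differences were 0.26 log2 with both agents, 0.54 with IFN-gamma, 0.48 with calcitriol and 0.85 between the arrays labelled untreated. The largest thus rests on labels that go against Vdr, and that pair enters every genotype estimate here. How many of all probe sets went 1 way in 4 of 4 pairs was not counted. Cd14 was at 0.78 log2 (SE 0.423, adjusted p = 0.999). Its pairs ran from -1.31 log2 between the arrays labelled untreated to 2.43 log2 with calcitriol. The remaining genotype estimates were 0.56 log2 for Tlr4, 0.50 for Tlr7, 0.40 for Tlr2, 0.36 for both Tlr1 and Tlr6, 0.09 for Ly96, -0.07 for Tlr8 and -0.24 for Cd180, each with an interval that includes 0. The dimmer probe sets were at 0.38 log2 for Tlr4 and at 0.27 and 0.41 for Tlr7. Genotype cannot be told apart here from the mice or cultures used.

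The IFN-gamma effect differed between genotypes for 0 members and 0 of 18058 probe sets by limma's adjusted p (0%), with 635 probe sets at an unadjusted p under 0.05 (3.52%). Tlr2 was the 1 member below that unadjusted level. Its IFN-gamma changes were 0.93 log2 with calcitriol and 0.45 without in Vdr-/- cells, against -0.36 with calcitriol and -0.28 without in wild-type cells. Both changes without calcitriol use the arrays labelled untreated, whose labels go against Vdr. Their signs rest on those labels, since these arrays read 608.1 (Vdr-/-) and 883.1 (wild type). The IFN-gamma readings of 829.8 in Vdr-/- cells and 728.5 in wild-type cells lay between them. The Tlr2 difference was 1.01 log2 (95% interval 0.03 to 1.99, adjusted p = 0.996). The differences of IFN-gamma effects were 0.77 log2 for Ly96, 0.45 for Cd14, 0.29 for Tlr8 and 0.19 for Cd180, and -0.11 for Tlr1, -0.27 for Myd88, -0.65 for Tlr7, -0.68 for Tlr4 and -0.95 for Tlr6, with intervals that include 0. On the dimmer probe sets this difference was 0.90 log2 for Tlr4, and -0.27 and 1.31 for Tlr7.

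The other genes of the pathway were taken from 6 lists of 77 genes in all, of which 64 were annotated on the array and 59 tested. With IFN-gamma, 6 of the 59 rose and 4 fell, against 389 of all probe sets that rose (2.15%) and 230 that fell (1.27%). Cell type markers moved in the same contrast, and their part in these results was not tested. Of 8 tested macrophage markers Fcgr1 rose (limma adjusted p = 3.17e-05), and of 4 tested dendritic cell markers Cd83 rose by 1.74 log2 (adjusted p = 0.000407). Of 5 tested stromal markers Col3a1 fell by 2.02 log2 (adjusted p = 0.0308), and of 3 tested genes linked to peritoneal macrophages Cd5l fell by 3.42 log2 (adjusted p = 1.24e-08) and Itga6 by 0.88 log2 (adjusted p = 0.0227). Summed over those 3 genes, the signal was 547 to 688.6 on the 4 arrays with IFN-gamma, against 1734 to 4627 on the 4 without. Stromal markers summed to 152.5 to 307.1 with IFN-gamma, against 343.9 to 605.5 without. The neutrophil, lymphocyte, erythroid and mast cell lists had 0 called.

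Of 9 tested co-receptors, chaperones and trafficking genes, 2 rose and 2 fell. Ly86, which encodes the partner protein MD-1 of Cd180, read 7431 and 7401.8 in Vdr-/- cells with IFN-gamma, against 3289.8 and 1632.4 without. Ly86 in wild-type cells read 10083.3 and 9182.5 with IFN-gamma, against 1871.9 and 1942.6 without. Ly86 rose by 2.01 log2 by limma (SE 0.238, adjusted p = 3.28e-06). No array with IFN-gamma overlapped one without, and such separations were not counted over all probe sets.

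Hsp90b1, the endoplasmic reticulum chaperone (gp96) that Toll-like receptors need to fold, rose by 0.97 log2 (adjusted p = 0.0289). Of its 2 probe sets only the brighter was called. The signals overlapped, since Vdr-/- cells read 453.6 with IFN-gamma and 645.4 with calcitriol alone. The lowest reading, 172.8, was on the array labelled Vdr-/- untreated. Ctsl, a lysosomal protease that can trim endosomal receptors, fell by 1.37 log2 (adjusted p = 0.00021), and Cd36, a scavenger receptor that assists Tlr2, fell by 0.98 log2 (adjusted p = 0.0211). Unc93b1, which escorts endosomal receptors, had an estimate of 0.69 log2 and did not pass (adjusted p = 0.177). The brightest Ctsb probe set did not pass while 1 of its other probe sets did.

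Of 12 tested negative regulators, 2 rose and 1 fell with IFN-gamma. Socs1, a suppressor of cytokine signalling, read 437.9 and 513.4 in Vdr-/- cells with IFN-gamma, against 6.9 and 65.4 without. Socs1 in wild-type cells read 295.6 and 289.1 with IFN-gamma, against 7.3 and 39.6 without. The limma estimate was a rise of 3.73 log2 (SE 0.452, adjusted p = 4.68e-06), with both calcitriol arrays without IFN-gamma below the floor. Trafd1, a feedback regulator of Toll-like receptor signalling, rose by 1.38 log2 (adjusted p = 0.00109). Dusp1, a phosphatase that switches off p38 and Jnk, fell by 2.39 log2 (adjusted p = 9.22e-06).

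Of 13 tested transcription factors, Irf7 and Irf8, which act downstream of endosomal Toll-like receptors, rose by 1.58 log2 (limma adjusted p = 0.00254) and 1.50 log2 (adjusted p = 4.68e-05), while the AP-1 subunit gene Fos fell by 1.94 log2 (adjusted p = 2.29e-06). Among 12 tested adaptors and kinases 0 were called and 2 had an unadjusted p under 0.05. The largest estimate was that of Pik3ap1 (BCAP), an adaptor that restrains Toll-like receptor signalling through PI3K, at 1.14 log2 (adjusted p = 0.0975). Among 10 tested inflammatory outputs 0 were called and 1 had an unadjusted p under 0.05, namely Tnf at 1.43 log2 (adjusted p = 0.0696). The 3 tested other Toll-like receptors, Tlr3, Tlr5 and Tlr9, had estimates of 0.66, -0.68 and 0.31 log2, with 0 called and 0 at an unadjusted p under 0.05.

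With calcitriol, 0 of the 59 pathway genes were called in Vdr-/- cells, against 35 of all 18058 tested probe sets (0.194%). There 2 of the 59 had an unadjusted p under 0.05, against 6.35% of all probe sets. In wild-type cells 1 of the 59 rose and 2 fell, against 0.188% of all probe sets that rose and 0.388% that fell. Pik3ap1 read 988.4 with both agents and 914.5 with calcitriol in Vdr-/- cells, against 1149.1 with IFN-gamma and 169.6 on the array labelled untreated. Pik3ap1 in wild-type cells read 285.4 with both agents and 68.1 with calcitriol, against 661.2 with IFN-gamma and 860.4 on the array labelled untreated. It fell by 2.44 log2 in wild-type cells (SE 0.511, limma adjusted p = 0.026), and its calcitriol effect was 3.54 log2 higher in Vdr-/- cells (SE 0.723, adjusted p = 0.0101).

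Fos read 438.4 with both agents and 1880.1 with calcitriol in Vdr-/- cells, against 573.9 with IFN-gamma and 1698.4 on the array labelled untreated. Fos in wild-type cells read 102.3 with both agents and 449.8 with calcitriol, against 473.1 with IFN-gamma and 1857.2 on the array labelled untreated. It fell by 2.13 log2 in wild-type cells (SE 0.331, limma adjusted p = 0.00376), and its calcitriol effect was 2.01 log2 higher in Vdr-/- cells (SE 0.468, adjusted p = 0.0264).

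The chemokine gene Ccl4 (MIP-1β) rose by 1.89 log2 with calcitriol in wild-type cells (SE 0.417, limma adjusted p = 0.0331). It was the 1 called gene of 10 tested inflammatory outputs there, and the median of that list was 0.38 log2, against 0.05 over all tested probe sets. In Vdr-/- cells 0 of the 10 were called, 0 had an unadjusted p under 0.05, and the median was -0.52 log2, against -0.08 over all tested. Part of that median rests on the array labelled Vdr-/- untreated, where Cxcl1 read 82.4 and Nos2 54.9, while both were under the floor on the other 3 Vdr-/- arrays. For the difference between genotypes 0 of the 10 were called and 2 had an unadjusted p under 0.05 (Il12b and Ccl4). Lgmn, an endosomal protease, had a difference of 2.00 log2 and did not pass (adjusted p = 0.0834).

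**Figure D4:**
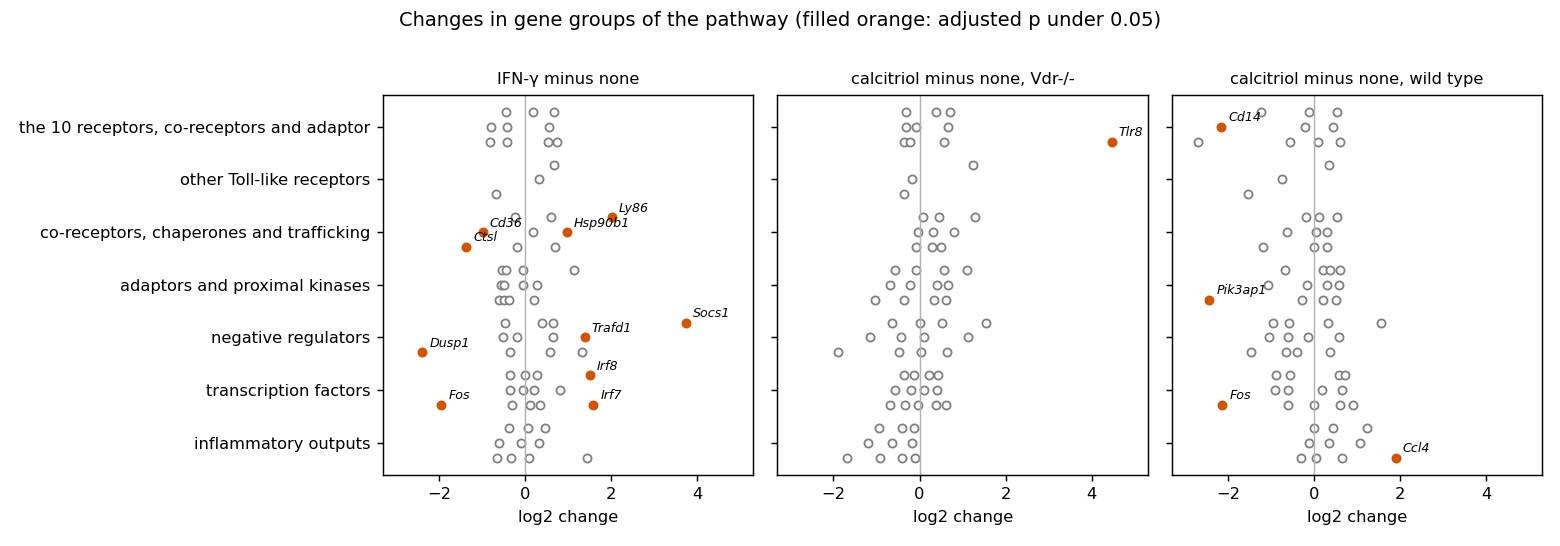
Log2 changes of the 10 genes and of the tested genes of the 6 pathway lists (rows, 1 point a gene, spread vertically for legibility) with IFN-gamma and with calcitriol in Vdr-/- and in wild-type cells. Filled orange points passed an adjusted p of 0.05 and carry the gene's name. With IFN-gamma 6 pathway genes rose and 4 fell while none of the 10 members passed, and with calcitriol in wild-type cells Cd14, Pik3ap1 and Fos lie on the left and Ccl4 on the right.

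The genes whose log2 signals followed Cd14 and Tlr8 most closely over the 8 arrays were found among 8275 named genes with at most 2 arrays at the floor. For Cd14 they were Atf3, a stress-induced transcription factor that is also on the pathway list (Pearson's r = 0.966), Xrn2 (0.954) and Tbrg1 (0.952). Atf3 read 1139.2 and 1468.7 in Vdr-/- cells with calcitriol and 1107.4 and 1124.9 without, and 779.5 and 899.9 in wild-type cells with it and 1026.4 and 1566.3 without. Its lowest arrays were those of Cd14. For Tlr8 they were Prkra (0.975), Vps50 (0.961) and Rbm8a (0.952). Prkra read 57.1 to 123.5 on the 4 arrays with the highest Gapdh ratios and 160 to 188.6 on the other 4, the same split as for Tlr8. These r values describe 8 arrays that share genotype, treatment and RNA quality, and 8275 genes were searched.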

How the data were processed

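RNA of mouse macrophages was hybridised to 8 arrays of 1 colour, with 1 array for every combination of 2 genotypes, IFN-gamma and calcitriol. The authors deposited linear intensity signals per probe set, which share a 2% trimmed mean. No source used here names the software, the scaling method or detection calls. After 64 controls were removed from 22690 probe sets, signals under 15.5 (the 25th percentile of all arrays pooled) were raised to that floor and log2 transformed. A probe set was tested where its maximum reached the pooled median of 59.1, which left 18058. Of the probe sets, 20380 name 1 gene, 691 several and 1555 none, and 0 symbols needed updating. A gene is its brightest probe set.

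The tests were two-sided fits with limma 3.58.1 (R 4.3.3) and trended empirical Bayes variances, and p-values were adjusted by Benjamini-Hochberg across the 18058 probe sets, with a threshold of 0.05. For IFN-gamma and for genotype the fit had 4 pairs of arrays as blocks and 3 residual degrees of freedom. For calcitriol and for differences between genotypes it was nested in genotype, with 2. The scripts were tested on simulated data. Plots were made with matplotlib 3.10.9 under Python 3.11.15. Precision is limited by the number of arrays and by signal over background, since 15.6% of tested values lay at the floor.

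The 10 genes, the pathway and marker lists and the tests were chosen with earlier results of these data known. All 10 genes are named in each comparison. Pathway genes are named where they passed, with up to 3 others per list, by size of change, allowed. Alternatives were another normalization, filter, floor, variance model, probe set rule and design, the Gapdh ratio as a covariate, and fits without pairs of arrays. An additive fit with the Gapdh ratio was added after seeing the data.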

Additional observations from a re-analysis of the deposited data

Results flagged for a closer look

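For 4 genes the test found a calcitriol effect that differed between genotypes, by limma on the difference itself. These were 2 of the 10 members and 2 of the 59 tested pathway genes, against 271 of 18058 tested probe sets (1.5%). The effect was higher in Vdr-/- than in wild-type cells by 2.73 log2 for Cd14 (adjusted p = 0.00558), 7.16 log2 for Tlr8 (adjusted p = 0.00104), 3.54 log2 for Pik3ap1 (adjusted p = 0.0101) and 2.01 log2 for Fos (adjusted p = 0.0264). Tlr8 rose with calcitriol in Vdr-/- cells, while Cd14, Pik3ap1 and Fos fell with it in wild-type cells. Each of the 4 contrasts uses both arrays labelled untreated. Pik3ap1 and Fos were not looked up under the alternatives, and 9 of those 16 called 0 probe sets for this difference. With the Gapdh ratio in the nested fit, which left 1 residual degree of freedom, the Tlr8 difference was called (adjusted p = 0.0448) and the Cd14 difference was not (adjusted p = 0.882). With the ratio in the additive fit, and without the 2 arrays with the highest ratios, neither was called (adjusted p = 0.175 and 0.702 for Tlr8, 0.844 and 0.702 for Cd14).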

How the results depend on the processing

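No direction of a called member reversed under any alternative. The counts of members called were 0 of 10 under all 15 alternatives for IFN-gamma, genotype and the difference of IFN-gamma effects. For calcitriol in Vdr-/- cells the count of 1 (Tlr8) held under quantile normalization, the floor at the 40th percentile, additive covariates, the Gapdh covariate and the mean over probe sets. It became 0 under the other 11 alternatives, with Tlr8 at 3.15 to 5.54 log2 over all 16. For calcitriol in wild-type cells the count of 1 (Cd14) held under the first 3 of these and became 0 under the other 13, with Cd14 at -2.28 to -1.45 log2 over all 16. The count of 2 for the difference held under quantile normalization, both floors, additive covariates and the mean over probe sets. It was 1 (Tlr8) with the Gapdh covariate and 0 under the other 10, with Cd14 at 1.20 to 3.62 log2 and Tlr8 at 5.16 to 9.17 log2 over all 16. Alternatives that gave 0 in all 3 were no filter, the filter at the 75th percentile, no intensity trend, leaving out the 2 arrays with the highest Gapdh ratios or the 2 labelled untreated, the additive fit with the Gapdh ratio added after seeing the data, and each left-out pair (0 to 0). For these 3 results the fits without a pair or without 2 arrays have 1 residual degree of freedom, and so has the fit with the Gapdh covariate in which Tlr8 was called. The cause was not tested.

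Calls over all probe sets moved too, while pathway and marker genes were not looked up singly under the alternatives. They ran from 24 to 638 for IFN-gamma (619 in the main result), 0 to 88 for calcitriol in Vdr-/- cells (35), 0 to 135 in wild-type cells (104), 0 to 334 for the difference (271), 0 to 86 for genotype (0) and 0 to 7 for the difference of IFN-gamma effects (0). Pairing by replicate number could not be tried, since each group had 1 array, and the blocks of the fits are pairs of groups that differ in 1 factor. Tlr8, which had 2 arrays at the floor, is limited by signal over background.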
